A study of Mus musculus with 12 samples.

Results

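The 9 genes described here write or remove DNA methylation: the methyltransferases Dnmt1, Dnmt3a and Dnmt3b, the cofactors Uhrf1 and Dnmt3l, the dioxygenases Tet1, Tet2 and Tet3, and the glycosylase Tdg. They were taken by symbol from the 24495 genes of a count table made by RNA-seq of mouse embryonic stem cells (mESCs). The cells are the CCE line with a Nanog-GFP reporter, a green fluorescent protein that marks cells expressing the pluripotency factor Nanog. The line shCTSL carries an shRNA against cathepsin L (Ctsl), a lysosomal protease that can also cut histone tails, and the line shSC carries a scrambled shRNA. Both lines were collected at Day 0, while growing in serum medium with the self-renewal factor LIF. They were collected again at Day 2 and Day 4 of differentiation in embryoid bodies (EBs), formed without LIF and with retinoic acid. Each of the 6 groups has 2 libraries. All groups went through viral transduction and drug selection, and all cells were sorted for GFP before the experiments. Nothing in the labels says which of the shRNAs against Ctsl was used. The labels call the control both WT and scrambled shRNA, and it is named shSC here, as in the study.

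In mammals a methyl group on the cytosine of a CpG is copied to the new strand after replication by DNMT1, which UHRF1 brings to hemimethylated DNA. New sites are methylated by DNMT3A and DNMT3B, and DNMT3L, which has no catalytic activity of its own, stimulates both. TET enzymes oxidise 5-methylcytosine, and TDG cuts out the oxidised bases so that base excision repair can put back an unmodified cytosine. Undifferentiated mESCs are known for high Tet1, Tet2 and Dnmt3l. DNA methylation itself was not measured in these libraries.

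The libraries hold 11171111 to 27155553 counts. Levels are given as normalized CPM, read counts scaled to a common library size with the TMM factors of edgeR. In shCTSL Day 2 the replicates stood apart: the SD of their log2 ratio over 15532 genes was 0.604, against 0.178 to 0.269 in the other 5 groups. The ribosomal gene Rn45s took 3.43% of the counts in replicate 1 of that group and 0.553% in replicate 2. Ctsl itself had 39.2 and 37.5 normalized CPM in shCTSL Day 0 against 137 and 147 in shSC Day 0. Its log2 difference was −1.89 ± 0.15 (SE) at Day 0 (edgeR quasi-likelihood test, adjusted p = 0.00246), −1.06 ± 0.14 at Day 2 (0.0342) and −0.83 ± 0.14 at Day 4 (0.0896). The Day 0 call was lost without either shCTSL Day 0 library (adjusted p = 0.117 and 0.129), and the Day 2 call without any of 10 of the 12 libraries. The Day 4 difference became a call without shCTSL Day 2 replicate 1 (−0.82, 1.33e-05) or replicate 2 (−0.83, 1.73e-05) and in 5 other alternatives, such as DESeq2 (−0.83, 3.10e-05) and exonic length offsets (−0.96, 0.00622). The 7 pluripotency markers summed to 5631 to 5812 CPM in shSC Day 0 and to 292 to 337 CPM in shSC Day 4. The 6 fibroblast markers, genes of cells that are not mESCs, summed to levels that were at 6.53 to 10.8 CPM at Day 0 and at 56.8 to 68.0 CPM at Day 4, and Lum was under the count filter. Their part in the results below was not tested. In bulk RNA, fewer cells of a type and less RNA per cell cannot be told apart.

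Of the 9 genes, 8 passed the filter on low counts and Tdg did not. Here a call needs both a 1.5-fold change or more and a Benjamini-Hochberg adjusted p under 0.05 over the 15532 genes tested. Between Day 0 and Day 4 all 8 tested genes were called in shSC, 6 lower and 2 higher, in a comparison that called 60.7% of all genes, 28.7% lower and 32.1% higher. The median log2 change of the 8 was −2.04, against 0.03 over all genes tested. Dnmt3l and Tet1 fell most and Tet3 rose most, and Dnmt3a was the only methyltransferase that ended above its Day 0 level. The groups of both lines by day are shown in the plot of levels per library.

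**Figure D1:**
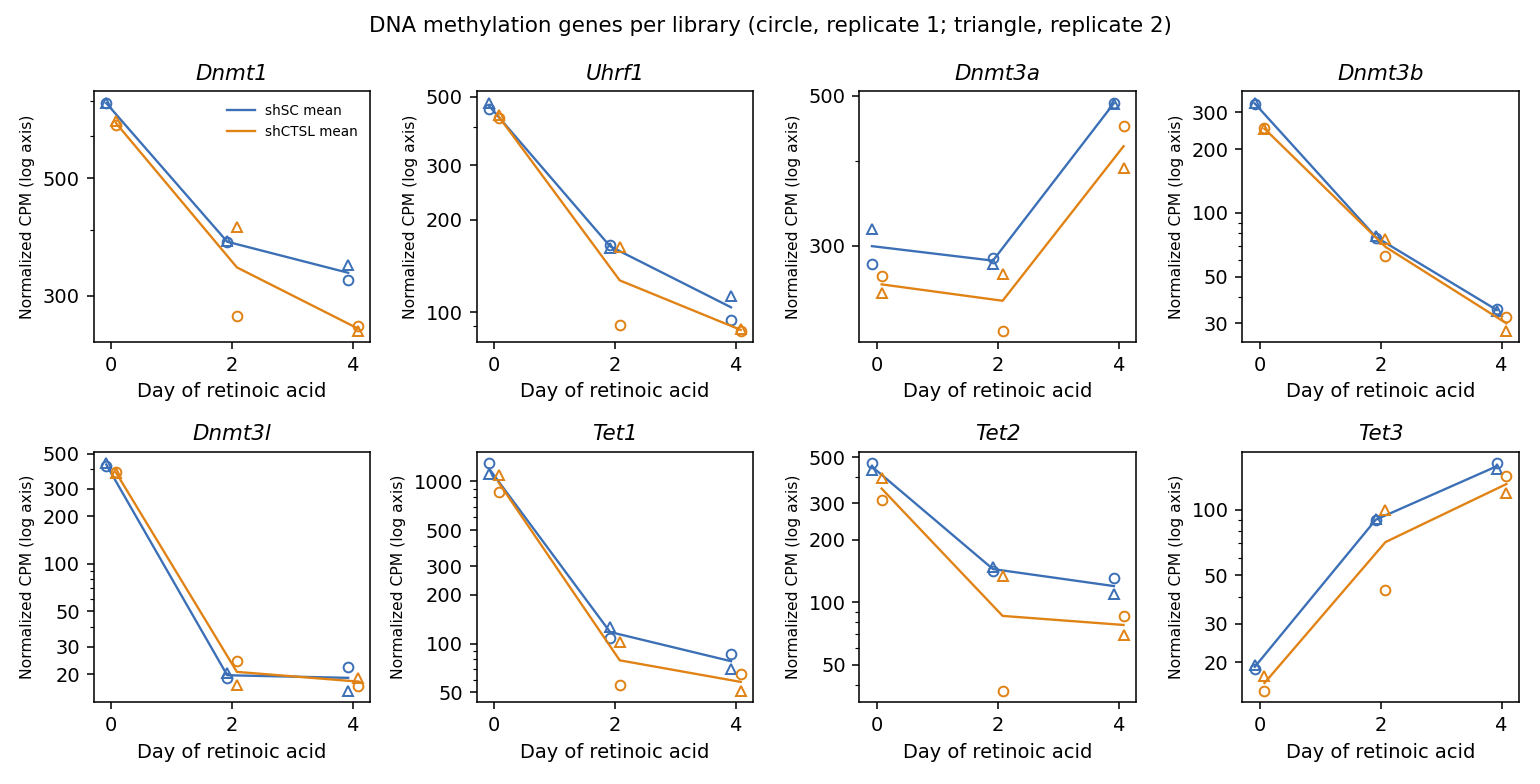
Normalized CPM (log axis) of the 8 tested genes in every library at Day 0, Day 2 and Day 4, with circles for replicate 1, triangles for replicate 2 and lines through the group means of shSC (blue) and shCTSL (orange). Dnmt3a and Tet3 end above their Day 0 level and the other 6 genes below it, and in shCTSL Day 2 replicate 1 lies under replicate 2 for every gene but Dnmt3l.

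Dnmt1, the maintenance methyltransferase, and Uhrf1, its recruiting factor, are both known as genes of dividing cells. The 250 bases before each RefSeq start site of the 9 genes (GRCm38.p6, 16 windows) were searched on both strands for TTTCGCGC and TTTGGCGC, forms of the element bound by E2F factors. Only TTTCGCGC was found, in 1 window each of Dnmt1 and Uhrf1, while 0.256% of all 32851 windows of this length hold it and 0.654% hold either form. The matching windows hold 26 CpGs in Dnmt1 and 30 in Uhrf1, against a median of 6 over all windows. The shares among windows equally rich in CpG were not computed. The matches are shown because they are the only such letters in the windows of the 9 genes. Each is printed with its neighbours on the strand of its gene, with the match in capitals, which in Dnmt1 is the reverse complement:
Dnmt1, chr9:20952824-20952853, minus strand: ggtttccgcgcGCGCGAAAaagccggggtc
Uhrf1, chr17:56304117-56304146, plus strand: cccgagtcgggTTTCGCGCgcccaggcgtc
The Dnmt1 match starts 219 bases before the third start site listed for the gene and the Uhrf1 match 185 bases before the second. A match is a description of these letters and not a binding site.

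Dnmt1 (mm9 chr9:20711650-20757317, minus strand) had 695 and 693 normalized CPM in the shSC Day 0 libraries. It had 378 and 380.3 CPM at Day 2, and 320.5 and 342 CPM at Day 4. Both EB groups lay below Day 0 with no overlap, and most of the decrease had taken place by Day 2. The log2 change was −0.87 ± 0.15 (SE) at Day 2 (edgeR, adjusted p = 0.000622) and −1.07 ± 0.15 at Day 4 (0.000133), a fall to 0.477 times the Day 0 level. From Day 2 to Day 4 Dnmt1 was not called (−0.20 ± 0.15, adjusted p = 0.378).

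Uhrf1 (mm9 chr17:56442744-56462909, plus strand) fell further than Dnmt1. Its shSC libraries had 457 and 478 CPM at Day 0, 165 and 162 at Day 2, and 94.8 and 113 at Day 4. The days did not overlap. The log2 change was −1.51 ± 0.22 at Day 2 (adjusted p = 0.000164) and −2.17 ± 0.22 at Day 4 (1.13e-05), to 0.222 times the Day 0 level. The step from Day 2 to Day 4 passed narrowly (−0.66 ± 0.21, adjusted p = 0.0422) and was lost without any of 10 of the 12 libraries, as far as −0.54 (adjusted p = 0.249) without shSC Day 4 replicate 1. It was also lost with RLE normalization (−0.66, 0.0517). Of the 3512 windows of 75 bases in the longest Uhrf1 transcript, 17.6% occur unchanged elsewhere in mm9, at the pseudogene Gm5648 on chromosome X.

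Among the de novo enzymes Dnmt3b and Dnmt3l fell while Dnmt3a rose late. Dnmt3l (mm9 chr10:77504692-77526367, plus strand), the catalytically inactive stimulator, had 419 and 433 CPM in shSC Day 0 and 19.0 and 20.4 at Day 2. It stayed there at Day 4, with 22.3 and 15.7 CPM. Its change was complete at Day 2: −4.43 ± 0.20 on the log2 scale (adjusted p = 9.22e-08), or 0.0463 times the Day 0 level, and −0.05 ± 0.19 between Day 2 and Day 4 (0.883). This was the largest fall of the 8 genes on both days.

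Dnmt3b (mm9 chr2:153475186-153513466, plus strand), which methylates CpG islands and repeats in the early embryo, fell in steps. It had 328 and 332 CPM at Day 0, 76.2 and 77.8 at Day 2, and 35.0 and 34.4 at Day 4 in shSC. Replicates differed by little and the days were far apart. The log2 change was −2.10 ± 0.12 at Day 2 (adjusted p = 3.18e-07), −1.15 ± 0.12 from Day 2 to Day 4 (7.89e-05) and −3.25 ± 0.13 over the whole course (1.83e-08), to 0.105 times the Day 0 level.

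Dnmt3a (mm9 chr12:3806007-3914443, plus strand), the de novo enzyme of later development, had 282 and 318 CPM at Day 0, 288 and 282 at Day 2, and 488 and 487 at Day 4. The Day 0 and Day 2 libraries overlapped, and both Day 4 libraries lay above them. Its log2 change was −0.07 ± 0.12 at Day 2 (adjusted p = 0.625) and 0.70 ± 0.12 at Day 4 (0.000491), with 0.77 ± 0.12 of the rise after Day 2 (0.00104). Dnmt3a has the longest exonic sequence of the 9 genes, 16642 bases. With gene-wise offsets that level the dependence of counts on exonic length within each library, the Day 4 change became 0.27 ± 0.15 (adjusted p = 0.124) and was not called, and the change from Day 2 became 0.56 ± 0.15 (0.0133), under 1.5-fold. The counts per gene do not tell the long Dnmt3a isoform from the short one that starts at an internal promoter, nor the active Dnmt3b isoforms from the inactive ones.

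The Tet genes exchanged places. Tet1 (mm9 chr10:62267318-62361866, minus strand), the main dioxygenase of mESCs, had 1292 and 1104 CPM in shSC Day 0. It had 108 and 127 CPM at Day 2, and 86.2 and 69.6 at Day 4. The Day 0 libraries were far above all others. The log2 change was −3.35 ± 0.28 at Day 2 (adjusted p = 3.66e-06) and −3.94 ± 0.29 at Day 4 (9.69e-07), to 0.0651 times the Day 0 level, while the step after Day 2 was not called (−0.60 ± 0.26, adjusted p = 0.112). That step became a call without shCTSL Day 2 replicate 1 (−0.61, 0.000817) or replicate 2 (−0.60, 0.00137), with no filter (−0.62, 0.0252), with only the libraries compared (−0.61, 0.000293) and with the length offsets (−0.81, 0.000352).

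Tet2 (mm9 chr3:133126643-133207354, minus strand), the other dioxygenase of mESCs, fell less. Its shSC libraries had 466 and 433 CPM at Day 0, 141 and 148 at Day 2, and 130.0 and 109 at Day 4. Both EB groups lay below Day 0. The log2 change was −1.64 ± 0.43 at Day 2 (adjusted p = 0.00712) and −1.91 ± 0.44 at Day 4 (0.0028). These standard errors are the largest of the 8 genes, and Tet2 is also the gene whose shCTSL Day 2 libraries differ most.

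Tet3 (mm9 chr6:83312367-83391672, minus strand), the dioxygenase of the zygote and of neural tissue, moved the other way. It had 18.6 and 19.5 CPM in shSC Day 0, 89.6 and 90.3 at Day 2, and 163 and 153 at Day 4. Each day lay above the one before. The log2 change was 2.24 ± 0.31 at Day 2 (adjusted p = 0.000134) and 3.05 ± 0.32 at Day 4 (1.34e-05), an 8.29-fold rise. The step from Day 2 to Day 4 missed the threshold (0.81 ± 0.29, adjusted p = 0.0596), and it became a call without either shCTSL Day 2 library (0.79, adjusted p = 6.21e-07 without replicate 1 and 0.81, 7.35e-07 without replicate 2) and in 5 other alternatives, from 0.64 (0.00629) with the length offsets to 0.82 (3.69e-06) with limma-voom, DESeq2 among them (0.81, 0.0388).

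In shSC, 7 of the 8 tested genes were called at Day 2 against Day 0, 1 higher and 6 lower, where 54.6% of all genes were, 29.3% higher and 25.3% lower. Between Day 2 and Day 4 there were 3, Dnmt3a higher and Dnmt3b and Uhrf1 lower, where 23.8% of all genes were called, 11.4% higher and 12.4% lower. The comparisons of Day 2 and of Day 4 with Day 0 share the Day 0 libraries.

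As shares of the Tet family, Tet1 gave way to Tet3 while Tet2 ended near its starting share. For this, normalized CPM per kb of merged exons was divided by the sum over the 3 family members in the same library. In shSC Tet1 made up 61.6% ± 1.47 (SD, n = 2) of the Tet family at Day 0, 25.2% ± 1.71 at Day 2 and 16.2% ± 0.941 at Day 4. Tet3 went from 1.31% ± 0.158 to 25.5% ± 1.01 and 43.9% ± 2.18. Tet2 held 37.1% ± 1.31, 49.3% ± 0.70 and 39.8% ± 1.24, so that its share at Day 4 lay close to that at Day 0 although its level had fallen. At Day 4 Tet3 and Tet2 were the leading transcripts per kb, and their libraries did not overlap in share.

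In the Dnmt3 family Dnmt3l gave 63.3% ± 0.0742 of the CPM per kb in shSC Day 0, then 17.0% ± 0.735 and 14.9% ± 3.10. Dnmt3a went from 7.98% ± 0.485 to 44.1% ± 0.996 and 69.1% ± 2.66, and Dnmt3b from 28.7% ± 0.411 to 38.8% ± 0.261 and 16.0% ± 0.438. Dnmt3a thus went from the smallest share to the largest, while the levels of the other 2 members fell. With the length of the longest transcript in place of merged exons the Dnmt3a share was 9.06%, 50.7% and 73.2%, in the same order over the days.

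**Figure D2:**
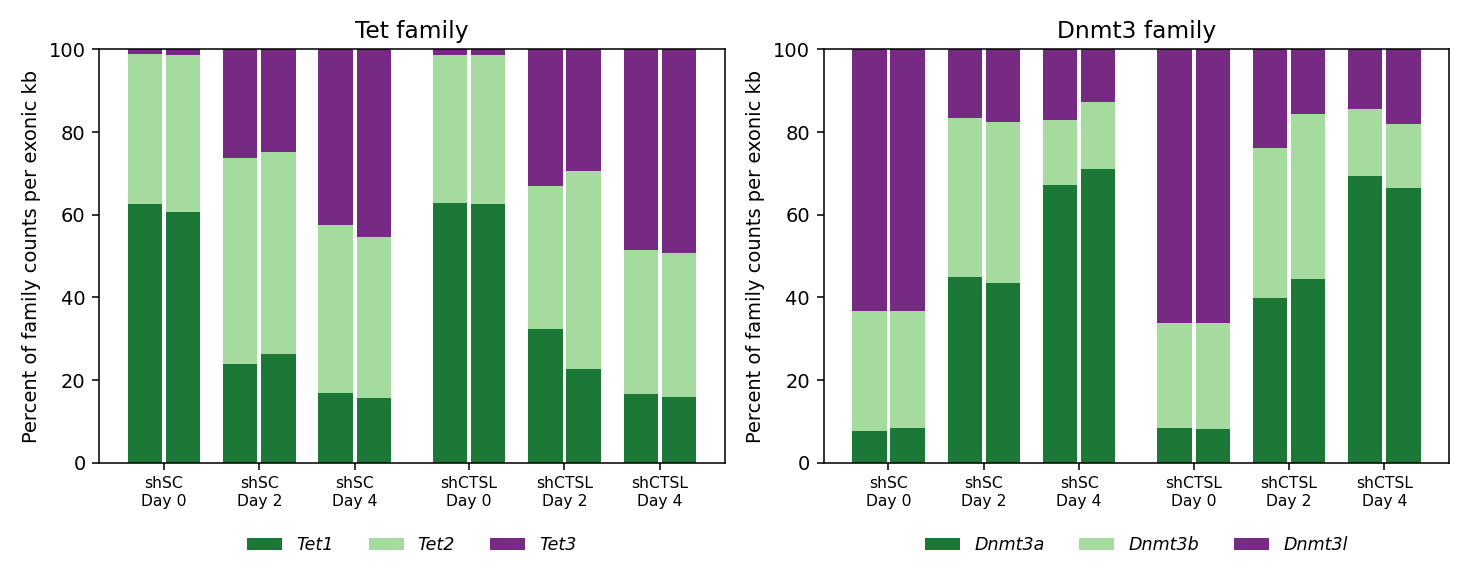
Percent of the summed CPM per exonic kb of the Tet family (left) and the Dnmt3 family (right) taken by each member, with 1 stacked bar per library and the 2 libraries of a group side by side. Tet3 grows from 1.31% to 43.9% and Dnmt3a from 7.98% to 69.1% in shSC between Day 0 and Day 4, and in both lines Dnmt3l holds the largest Dnmt3 share at Day 0 and Dnmt3a at Day 4.

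Ordered by level per kb of merged exons, shSC Day 0 had Dnmt3l at 143 CPM per kb, then Dnmt1 at 132, Uhrf1 at 110, Tet1 at 81.4, Dnmt3b at 64.6, Tet2 at 48.9, Dnmt3a at 18.0 and Tet3 at 1.72. No neighbours in this order overlapped between libraries. At Day 4 Dnmt1 led with 62.9 CPM per kb, followed by Dnmt3a at 29.3, Uhrf1 at 24.4, Tet3 at 14.3, Tet2 at 13.0, Dnmt3b at 6.80, Dnmt3l at 6.36 and Tet1 at 5.29. There the libraries of Tet3 and Tet2 overlapped, those of Dnmt3b and Dnmt3l overlapped, and those of Dnmt3l and Tet1 overlapped. The order depends on the length used. With the longest transcript in place of merged exons, Dnmt3l lay above Dnmt3b in shSC Day 4, at 15.1% against 11.7% of the Dnmt3 family. The summed level of the 9 genes went from 3813 to 3957 CPM in the shSC Day 0 libraries to 1324 to 1341 CPM at Day 4.

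Tdg, a glycosylase that removes thymine mispaired with guanine and the formyl and carboxyl forms of cytosine, was barely counted. It had 1 to 9 counts in each of the 12 libraries, and it was not tested. The gene lies at mm9 chr10:82092573-82113544 on the plus strand. Of the 3428 windows of 75 bases, the read length, in its longest transcript, 2513 (73.3%) occur without a mismatch elsewhere in mm9, and the best copy, Gm5806 on chromosome 15, matches 86.4% of the transcript at 98.6% identity. The authors removed alignments of low mapping quality, which reads with several equal places receive, and the part of this step in the low counts was not tested. The following window in a coding exon, shown because all of it occurs again, is an example and has no part in capitals:
Tdg, mm9 chr10:82104061-82104135, plus strand: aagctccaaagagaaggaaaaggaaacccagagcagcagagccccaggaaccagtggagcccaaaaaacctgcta
It is found unchanged at chr10:41774911-41774985, chr15:82347041-82347115 and chr7:83390624-83390698 of the same build. For 6 of the other genes the share of such windows was 0%, and it was 2.78% for Dnmt3b.

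In shCTSL the same genes were called in the same directions at Day 4. At Day 4 against Day 0 all 8 genes were called, 2 higher and 6 lower, where 59.9% of all genes were, 32.3% higher and 27.6% lower. At Day 2 against Day 0 there were 7, 1 higher and 6 lower, where 55.5% of all genes were called, 30.9% higher and 24.6% lower. The log2 changes at Day 4 were −1.29 ± 0.15 for Dnmt1, −2.30 ± 0.22 for Uhrf1, −3.06 ± 0.13 for Dnmt3b and −4.40 ± 0.20 for Dnmt3l (edgeR, adjusted p = 3.56e-05, 8.14e-06, 2.84e-08 and 5.89e-08). Those of the Tet genes were −4.08 ± 0.29 for Tet1, −2.18 ± 0.44 for Tet2 and 3.03 ± 0.32 for Tet3 (8.44e-07, 0.00138 and 1.64e-05). Dnmt3a rose by 0.68 ± 0.12 (adjusted p = 0.000642), a call that was lost without shCTSL Day 4 replicate 1 (0.57, 0.00906) and with the length offsets (0.37, 0.0427), where the change stayed under 1.5-fold.

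Between Day 2 and Day 4 of shCTSL, 3 genes were called where 23.4% of all genes were, 11% higher and 12.4% lower. They were Dnmt3a higher (0.76 ± 0.12, adjusted p = 0.00128), Dnmt3b lower (−1.20 ± 0.12, 6.55e-05) and Tet3 higher (0.88 ± 0.29, 0.0459). The Tet3 call was lost without any of 11 of the 12 libraries, and its log2 change was 0.38 (adjusted p = 0.0075) without shCTSL Day 2 replicate 1. Without that library Dnmt1 (−0.66), Uhrf1 (−0.92), Tet1 (−0.84) and Tet2 (−0.82) became calls as well. With the length offsets Tet1 was called too (−0.68, 0.00128) and Dnmt3a was not (0.44, 0.039). With only the libraries compared the Dnmt3a (0.75, 0.0942) and Tet3 (0.87, 0.284) calls were lost. The shares of the Tet family at Day 4 were 16.3% ± 0.527 for Tet1, 34.8% ± 0.0861 for Tet2 and 48.9% ± 0.613 for Tet3.

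**Figure D3:**
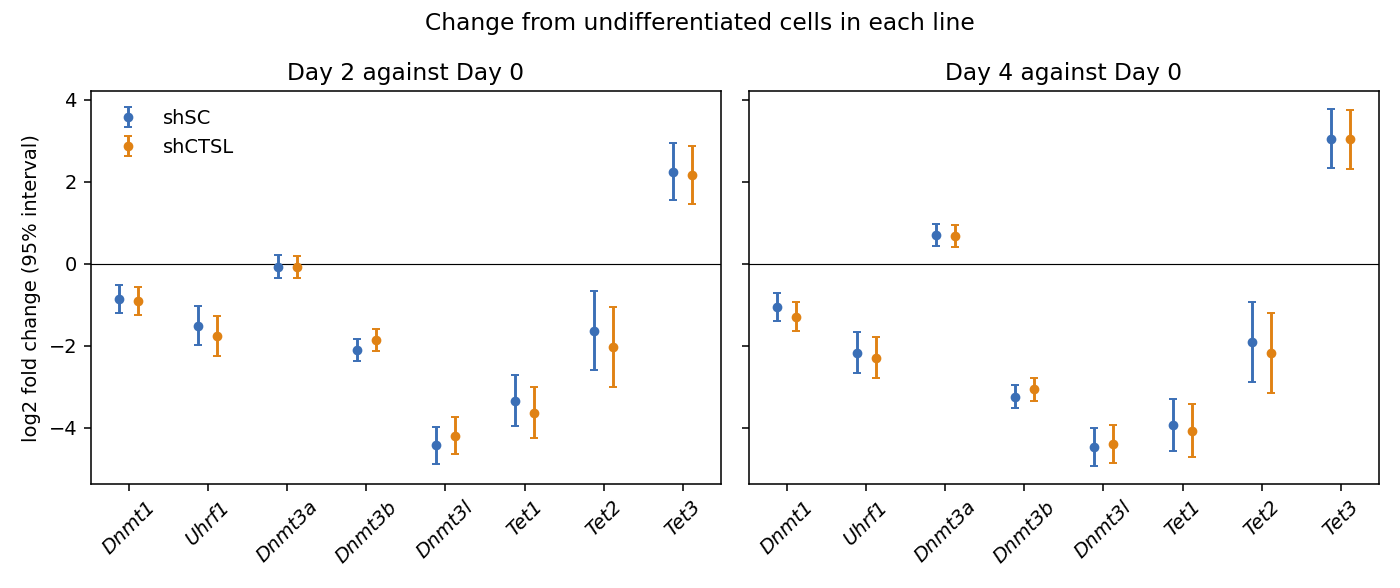
Log2 fold change of the 8 tested genes at Day 2 (left) and Day 4 (right) against Day 0, in shSC (blue) and shCTSL (orange), with 95% intervals from the fit across all genes. In both lines Dnmt3l and Tet1 fall most, Tet3 rises on both days and Dnmt3a lies near 0 at Day 2 and above 0 at Day 4.

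Other genes of the pathway were counted from lists of partners. All counts that follow stand against the 28.7% of all genes called lower and 32.1% called higher in shSC between Day 0 and Day 4, and list medians against an all-gene median of 0.03. Of 12 genes that act with Dnmt1 and Uhrf1 or protect imprinted methylation, 8 fell and 1 rose in shSC, with a median log2 change of −1.29. With a log2 cutoff of 1.5 in place of 1.5-fold 4 were called. Zfp57, which keeps imprints methylated, fell by 2.74 on the log2 scale, Hells, a remodeler needed for methylation of repeats, fell by 1.91 and Pcna, the replication clamp, fell by 1.69 (edgeR, adjusted p = 1.36e-08, 1.84e-07 and 2.24e-05). The 1 that rose was Uhrf2, the paralog of Uhrf1, by 1.25 ± 0.11 (2.97e-06). It had 56.1 and 55.6 CPM in shSC Day 0 and 133 and 132 at Day 4, so that both Day 4 libraries lay above both Day 0 libraries.

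Of 8 genes known to restrain or direct the de novo and Tet enzymes, 2 rose and 3 fell, with a median of −0.36. The 5 calls are a share near that of all genes (60.7%), and 3 were left with the log2 cutoff of 1.5. Prdm14, a repressor of Dnmt3b and Dnmt3l in naive cells, went from 31.1 and 29.1 CPM to 1.55 and 1.53 and fell by 4.29 on the log2 scale (adjusted p = 7.15e-08). Morc1 fell by 4.51 (2.00e-07) and Nsd1, a histone methyltransferase that makes the mark read by DNMT3A, fell by 0.81 (0.0147), a call lost without shSC Day 0 replicate 1 (−0.75, 0.0672) or shSC Day 4 replicate 2 (−0.70, 0.0948). Cxxc4, which binds Tet2, had 4 and 4 counts in shSC Day 0 and 397 and 286 at Day 4, and none in either shCTSL Day 0 library. Ogt, the partner of Tet proteins, rose by 0.61 (0.00335) and was not called without shSC Day 4 replicate 1 (0.55, 0.0278) or with the length offsets (0.30).

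Of 8 readers of methylated DNA, 4 rose and 0 fell in shSC, with a median log2 change of 0.74. The 4 calls are a smaller share than the 60.7% of all genes called, and 3 of the 8 changes were below 0. In shCTSL 4 rose and 2 fell, with a median of 0.40, where 32.3% of all genes were called higher and 27.6% lower. Zbtb4 rose by 4.62 ± 0.26 on the log2 scale in shSC (edgeR, adjusted p = 1.77e-07), from 1.37 and 1.24 CPM at Day 0 to 34.5 and 29.6 at Day 4. Mbd2 rose by 1.40 ± 0.11 (1.49e-06) and Mbd1 by 0.73 ± 0.14 (0.000869). In shCTSL the log2 change was 4.75 for Zbtb4, 1.08 for Mbd2 and 0.62 for Mbd1, all called higher, and none of these 3 genes was called in the interaction for Day 4 against Day 0.

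Of 14 genes of base excision repair and Gadd45 proteins, 2 rose and 6 fell in shSC, with a median of −0.52. This too is a share near the 60.7% of all genes called, and 3 were left with the log2 cutoff of 1.5. Gadd45g, a stress-induced adaptor linked to demethylation, rose by 3.35 ± 0.35 (adjusted p = 1.36e-05), and Smug1, a uracil glycosylase, by 1.11 ± 0.14 (6.26e-05). Gadd45a and Gadd45b, the other Gadd45 genes of the list, were among the 6 that fell. Their log2 changes with the length offsets were −1.21 and −1.08. Parp1 fell by 1.66 (2.28e-07) and the uracil glycosylase Ung by 1.54 (6.55e-07). Of 10 genes of one-carbon metabolism and the methionine cycle, which supply the methyl donor S-adenosylmethionine, and of 2-oxoglutarate, the Tet cosubstrate, 5 fell and 0 rose, with a median of −0.89, fewer than the 60.7% of all genes called. The count was 3 with the log2 cutoff of 1.5 and 8, 3 of them higher, with no fold cutoff. Gldc fell by 3.26, Shmt1 by 2.23, Shmt2 by 2.12 and Mat2a, which makes the donor itself, by 1.25 (1.28e-07, 6.60e-08, 2.31e-07 and 2.35e-06), and Ahcy fell by 1.17 (0.0029).

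Genes of DNA replication moved with Dnmt1 and Uhrf1. All 17 S-phase genes counted fell in shSC between Day 0 and Day 4, with a median log2 change of −1.32, and all 17 fell in shCTSL (−1.51), where 28.7% and 27.6% of all genes were called lower. With the log2 cutoff of 1.5 there were 4 in shSC and 9 in shCTSL. Their summed level was 6573 to 6660 CPM in the shSC Day 0 libraries and 2450 to 2610 at Day 4. The 7 pluripotency markers fell as well, with a median of −4.24. The part of these changes in the fall of Dnmt1 and Uhrf1 was not tested. Among 11010 genes with a mean of at least 5 normalized CPM, those whose log2 level over the 12 libraries was most like that of Dnmt1 were Pole (Pearson r = 0.995), Kif20a and Gli2. For Uhrf1 they were Ppwd1 (0.997), Fanci and Fancd2, and for Dnmt3b Helb (0.998), Cad and H2-M5.

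The closest genes to Dnmt3l were Nsun2 (r = 0.998), Nars and Klf9, to Tet1 Dock5 (0.999), Polr1b and Urb2, and to Tet2 Zfp106 (0.998), Tmem131 and Atad5. For Tet3 they were Kalrn (0.998), Cdh2 and Foxj2, and for Dnmt3a AW551984 (0.971), Kcnj2 and Lgr4. Among the members, Dnmt1 and Uhrf1 had r = 0.990 and Tet1 and Uhrf1 0.981, while Tet3 had −0.941 with both Dnmt3b and Dnmt3l. Dnmt3a was least like the rest, from −0.634 with Dnmt3b to 0.674 with Tet3. These correlations run over 12 libraries that share the days and the 2 lines, and they describe the common course rather than separate evidence for each pair.

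Between the lines no member was called on any day. At Day 0 the libraries of shCTSL lay below those of shSC for all 8 tested genes, where 28.6% of all genes lay apart in that direction, and 0 of 8 were called by edgeR where 0.0386% of all genes were. The log2 differences, shCTSL minus shSC, ran from −0.40 to −0.12, with a median of −0.22 against −0.02 over all genes. Dnmt3b had 253 and 249 CPM in shCTSL and 328 and 332 in shSC. Its difference of −0.40 ± 0.11 (95% interval −0.65 to −0.14) had an adjusted p of 0.43 in edgeR, and an unadjusted p of 0.0062 that was the only 1 of the 8 under 0.05. Without shCTSL Day 2 replicate 1 the adjusted p was 0.00598 and without replicate 2 it was 0.00488, with changes of −0.39 and −0.40 that stayed under 1.5-fold. DESeq2 also called 0 of the 8.

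At Day 4, 7 of the 8 genes lay apart with shCTSL lower, all but Dnmt3l, where 31.5% of all genes lay apart in that direction. None was called by edgeR or DESeq2, where edgeR called 0.0129% of all genes, and 1 had an unadjusted p under 0.05, Dnmt1 (−0.35 ± 0.15, adjusted p = 0.403). Dnmt1 had 262 and 258 CPM in shCTSL against 320.5 and 342 in shSC. Tet2 had the largest difference, with 85.4 and 69.8 CPM in shCTSL and 130.0 and 109 in shSC, or −0.62 ± 0.43 on the log2 scale (95% interval −1.57 to 0.33, adjusted p = 0.514). It became a call when edgeR fitted only the 4 Day 4 libraries (−0.60 ± 0.11, adjusted p = 0.00844) and with limma-voom and quality weights (−0.63, 0.0214). Those fits called 711 and 723 of all genes, where the main fit called 2. Without shCTSL Day 2 replicate 1 or replicate 2 the Tet2 difference was −0.62 and −0.63. The Tet2 value thus hardly moved, while its standard error went from 0.43 to between 0.11 and 0.17.

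At Day 2 the comparison rests on 2 unlike shCTSL libraries. Of the 8 genes 4 lay apart with shCTSL lower, Dnmt3a, Dnmt3b, Tet1 and Tet2, where 22.7% of all genes did. For Tet2 the shCTSL libraries had 37.3 and 134 CPM, against 141 and 148 in shSC. For Tet1 they had 55.9 and 102 CPM against 108 and 127. For Dnmt3a they had 225 and 273 against 288 and 282, and for Dnmt3b 62.5 and 75.7 against 76.2 and 77.8. The lines overlapped for Tet3, with 42.8 and 99.3 in shCTSL against 89.6 and 90.3. They also overlapped for Uhrf1, with 90.7 and 163 against 165 and 162. Replicate 1 was the low library in each case, and replicate 2 lay near shSC. With both libraries 0 of 8 genes were called where 0.0644% of all genes were, by edgeR and by DESeq2, and 1 (Tet1) had an unadjusted p under 0.05. Without replicate 2, that is with replicate 1 alone, 4 were called lower: Uhrf1 (−0.86), Tet1 (−1.08), Tet2 (−1.96) and Tet3 (−1.08). In that fit 5012 of all genes were called. Without replicate 1 none was called, and the median of the 8 was −0.04.

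**Figure D4:**
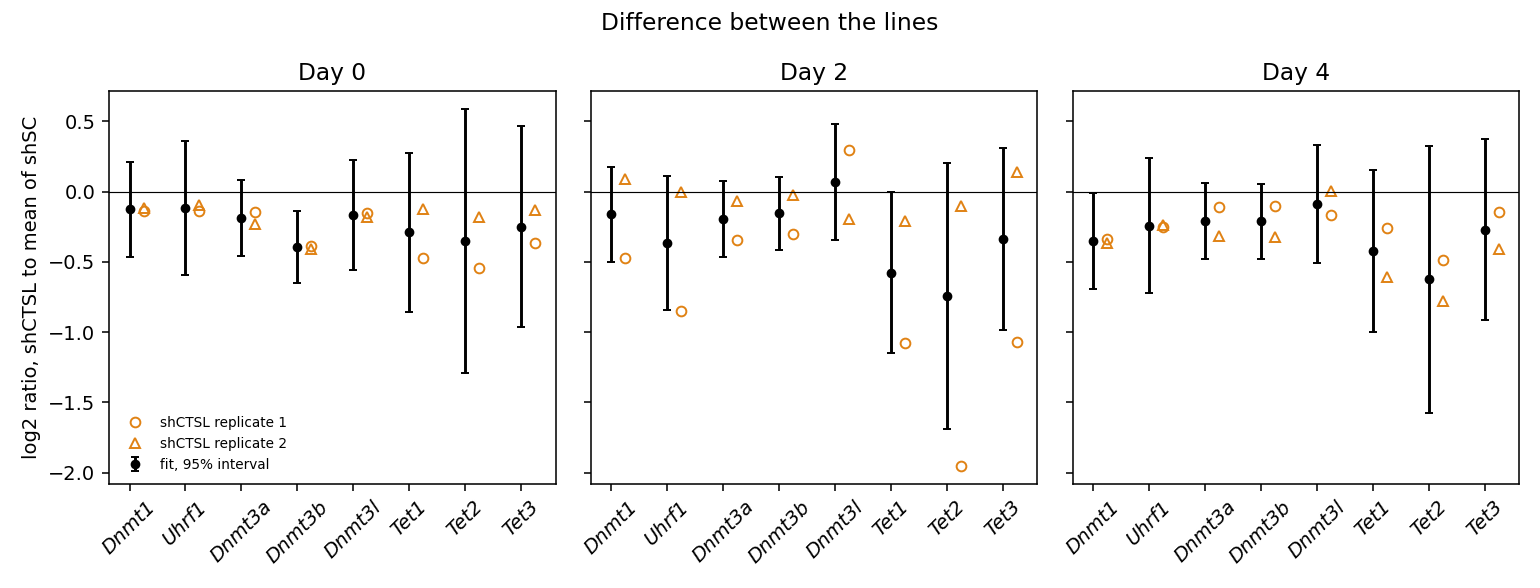
Log2 ratio of shCTSL to shSC for the 8 tested genes at Day 0, Day 2 and Day 4: black points with bars give the fitted difference with its 95% interval, and orange symbols give each shCTSL library against the mean of the shSC libraries of that day. The points lie at or below 0 except for Dnmt3l at Day 2, no gene is called, and the shCTSL libraries are farthest apart for Tet2 at Day 2.

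Averaged over the days all 8 differences were below 0, with a median of −0.25 against 0.00 over all genes, and 0 of 8 were called by edgeR or DESeq2, where edgeR called 0.27% of all genes. An unadjusted p under 0.05 was reached by 5: Dnmt3b (−0.25 ± 0.07), Tet1 (−0.43 ± 0.15), Dnmt3a (−0.20 ± 0.07), Dnmt1 (−0.21 ± 0.09) and Tet2 (−0.57 ± 0.24), with adjusted p between 0.128 and 0.213. Without shCTSL Day 2 replicate 2 the difference was −0.60 for Tet1 and −0.98 for Tet2. The median of the 8 was then −0.36, and it was −0.15 without replicate 1. With limma-voom Tet2 was called (−0.66, adjusted p = 0.0308), in a fit that called 128 of all genes where edgeR called 42. The differences were smaller with the offsets for exonic length, with a median of −0.16 over the days and with Dnmt3a at 0.10, above 0. The 8 genes have 2988 to 16642 exonic bases, and the part of length in the small differences between the lines was not tested further.

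The change between days did not differ by line for any member at the threshold. For the interactions, the change in shCTSL minus that in shSC, 0 of 8 genes were called for Day 2 against Day 0, for Day 4 against Day 2 and for Day 4 against Day 0, by edgeR and by DESeq2, where edgeR called 0%, 0% and 0.00644% of all genes. None of the 8 had an unadjusted p under 0.05. The values ran from −0.39 to 0.24, from −0.19 to 0.15 and from −0.27 to 0.18 on the log2 scale. These values moved with the shCTSL Day 2 libraries. For Day 2 against Day 0 the median of the 8 was −0.06 with both, −0.54 without replicate 2 and 0.17 without replicate 1. For Day 4 against Day 2 it was 0.03, 0.37 and −0.23 in the same order. Leaving out either replicate leaves 1 library in that group.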

How the data were processed

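The deposited table holds counts of reads per gene. As the authors describe and the submitters' processing notes list, poly(A) libraries were aligned to mm9 with STAR 2.3.0e, alignments of low mapping quality were removed, and reads were counted with featureCounts 1.6.2. Whether strand was used in counting is not stated in these sources. From the counts, edgeR 4.0.16 in R 4.3.3 gave TMM factors, a filter (filterByExpr, minimum count 10) and quasi-likelihood tests in 1 fit of 6 groups over all 12 libraries. The fit gave 13 comparisons with Benjamini-Hochberg adjustment over 15532 genes. The study describes the replicates as biological, and the labels do not say whether they were separate cultures, so p-values measure the spread between these samples. CPM per kb used exonic lengths of GENCODE M1, matched by symbol for 20561 of 24495 genes. Copies were searched with blastn 2.17.0. Named genes are the 9 members, Ctsl, genes of the pathway lists past the test, largest first, and the 3 genes most like each member by Pearson r of log2(CPM + 0.5), leaving out predicted genes. The members and lists were chosen with earlier results of these data known. Alternatives included DESeq2 1.42.0, limma 3.58.1 and leaving out each library. The model was also run on simulated counts that used 1 spread per gene for all groups. They lack the wider spread of shCTSL Day 2, and no result here rests on them. Total counts were 11171111 to 27155553 per library. A withheld item, with the counts that need it, is not reported here.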

Additional observations from a re-analysis of the deposited data

How the results depend on the processing

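Precision is limited by 2 libraries a group with 6 residual degrees of freedom, and by the unlike shCTSL Day 2 libraries, which widen the errors of every comparison. The labels do not say whether replicate numbers pair the samples across groups, and the main fit did not pair them. Deviations of same-numbered samples correlated between −0.465 and 0.257, which cannot settle the question. With a replicate block no call of a member changed, the Ctsl difference at Day 2 lost its call (−1.06, adjusted p = 0.0631), and the median line difference at Day 4 was −0.25. Of the alternative values computed, with interactions entered as counts only, 5466 kept direction and side of the threshold (or moved little), 130 lost a call, 46 gained one, 47 values without a test, counts included, moved and 19 reversed. The number of members called from Day 2 to Day 4 was 3 in each line. In shSC it was 0 with a log2 cutoff of 1.5, 5 with no filter or with only the libraries compared, and 2 to 5 when single libraries were left out (5 without either shCTSL Day 2 library). In shCTSL it was 0 with the log2 cutoff, 1 with only the libraries compared, and 2 to 6 when single libraries were left out (6 without shCTSL Day 2 replicate 1). Between the lines 0 members became 1 at Day 4 with only the libraries compared and with limma-voom, where all genes called went from 2 to 711 and 723. In the mean over days 0 became 1 with limma-voom, where all genes called went from 42 to 128. Leaving out a library leaves 1 in its group. Without shCTSL Day 2 replicate 2 the median line difference of the 8 genes was −0.66 at Day 2 and −0.36 in the mean. Without replicate 1 it was −0.04 and −0.15. At Day 4 this median ran from −0.35 to −0.21 over the single libraries left out.

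Directions reversed only for differences that were not called. With exonic length offsets the line difference of Dnmt3a was 0.21 at Day 2, 0.10 at Day 4 and 0.10 in the mean, and that of Dnmt3l at Day 2 was −0.021. With limma-voom Tet2 from Day 2 to Day 4 in shCTSL was 0.081. Leaving out single libraries, the line difference at Day 2 ran from −0.47 to 0.10 for Dnmt1, −0.86 to 0.0031 for Uhrf1, −0.19 to 0.30 for Dnmt3l and −1.08 to 0.15 for Tet3. For Dnmt3l it ran from −0.31 to 0.20 at Day 4 and from −0.15 to 0.030 in the mean. For Dnmt3a at Day 2 against Day 0 the limits were −0.16 and 0.059 in shSC, and −0.22 and 0.095 in shCTSL. For Dnmt3l from Day 2 to Day 4 they were −0.33 and 0.18 in shSC, and −0.43 and 0.044 in shCTSL, where those of Tet1 were −0.84 and 0.051 and those of Tet2 −0.82 and 1.05. The cause of these reversals was not tested.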
